A study of Mus musculus with 12 samples.

Results

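The genes described here are 35 genes of fibroblasts, smooth muscle, pericytes and the extracellular matrix, read on arrays of sorted mouse prostate cells. They were taken by name, and each was read on its brightest probe set with a single gene symbol. A probe set was found for 34 of the 35, the exception being Fbn1 (fibrillin-1), and all 34 passed the filter on low values, out of 20135 genes that passed in the series. The series holds 12 libraries of total RNA from epithelial cells of the prostate. The mice were male, wild type and hormone-naïve, and their age is not given in the sources used here. All cells were sorted as lacking CD45, CD31 and Ter119, the surface markers of immune, endothelial and erythroid cells, and no marker of fibroblasts or muscle is named among those used to remove cells. They fall into 3 gates: luminal (low for both Sca1 and CD49f), Sca1-high (positive for CD49f) and basal (intermediate for Sca1, positive for CD49f). Each gate was divided into cells with and without the surface protein LY6D, which gives 6 groups of 2 libraries. Luminal libraries came from mice 4 and 5, Sca1-high libraries from mice 1 and 5 and basal libraries from mice 3 and 5. No group carries a transgene, deletion or drug. Where a pair of values is given for a group below, the second is mouse 5.

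The prostate epithelium sits in a stroma of smooth muscle and fibroblasts, with blood vessels wrapped by pericytes. Fibroblasts secrete fibrillar collagens, the proteoglycans that bind them, and elastic fibre proteins. Smooth muscle cells carry a contractile apparatus of their own actin, myosin and actin-binding proteins, and pericytes share part of it. Some of these genes are also active in epithelial, endothelial or myeloid cells, so none of them alone marks a stromal cell. In RNA from many cells, fewer cells of a type and less RNA per cell cannot be told apart.

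Signals are on the log2 scale, where a step of 1 is a doubling of signal. Means ± SD are over the 4 libraries of a gate (n = 4, 2 mice), and differences are given ± SE with limma's p adjusted over all 20135 genes. The fit takes libraries of 1 mouse as independent although they share an animal, so its p-values do not measure the spread between mice alone. Precision is limited by how few arrays there are. The LY6D classes are those of the sort labels, and the transcript of Ly6d did not separate them: over the gates LY6D+ minus LY6D- was -0.13 ± 0.40 (adjusted p = 1.00). Ly6d was lower in the LY6D+ library in 3 of the 6 pairs from 1 mouse and gate. These were luminal mouse 4 (4.81 against 5.11), basal mouse 5 (5.96 against 6.03) and, with the widest gap, Sca1-high mouse 5 (4.70 against 7.37). The library labelled LY6D+ of that mouse also had the lowest Krt8 (6.48) and Krt18 (5.30) of the 12. The main gate differences that rest on Sca1-high cells are also given without both mouse 5 libraries of that gate, which leaves a single mouse there. A further 3 libraries of mouse 5 (basal LY6D+, basal LY6D- and luminal LY6D-) stood apart by detecting fewer genes: 17585 to 18009 genes exceeded the table's lower quartile (2.98) there, against 18536 to 19061 in the other 9.

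Most of the listed genes read above the median of the table, which is not a limit of detection. In all 12 libraries, 23 of the 34 lay above the table median of 3.91, which was so for 39.8% of all genes tested. Some of the 23 read near the mean of all genes tested (4.48 to 4.52 by group), among them Col5a1 (4.05 to 4.74) and Pdgfrb (4.26 to 4.96). Whether such genes were expressed was not tested. The proteoglycan gene Lum, the matricellular gene Postn and the platelet-derived growth factor receptor gene Pdgfra were the exceptions at the low end, with at most 4 libraries above that median. The range of a gene over the 12 libraries exceeded 3 log2 units for 10 of the 34 genes (9.74% of all genes). These were Col1a2, Postn, Mgp, Efemp1, Serping1, Thy1, Vim, Tcf21, Myl9 and Rgs5. At the other end, 14 genes spanned at most 1.5 log2 units (0.69 to 1.48), among them 7 of the 8 collagen chains, Fbln1, Fbln2, Loxl1, Pdgfra, Cnn1, Lmod1 and Pdgfrb. The other 20 exceeded 1.5 log2 units, as did 33.9% of all genes. On the probe sets read, the list therefore did not vary as 1 block. Type I collagen's chains alone ran from a range of 1.10 for Col1a1 to 3.90 for Col1a2. A second, dimmer Col1a2 probe set differed less between gates, with gate means of 4.53 to 4.87, so the contrast of these chains rests on the brighter one.

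**Figure D1:**
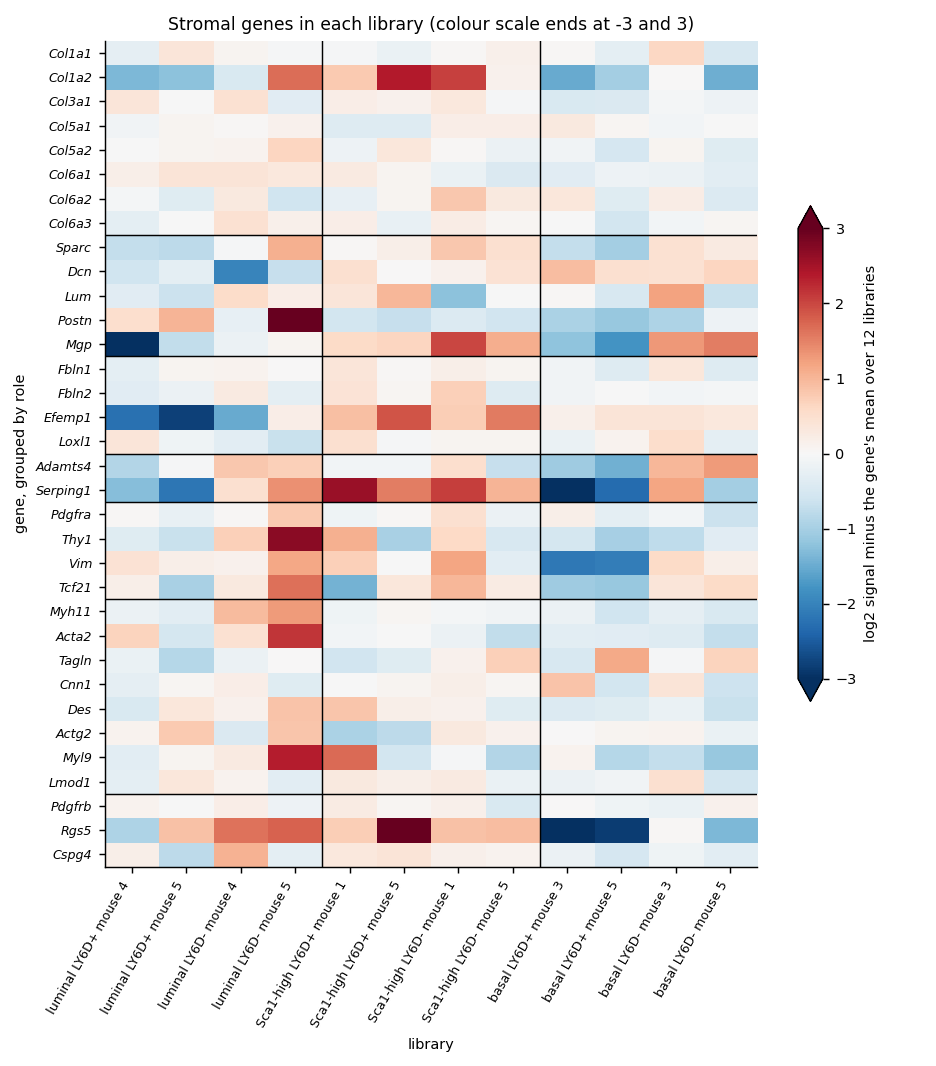
Heat map of the 34 genes (rows, grouped by role) in the 12 libraries (columns, by gate and LY6D class); colour is log2 signal minus the mean of the gene over the 12 libraries, with colours ending at -3 and 3. Rgs5, Serping1, Mgp, Postn and Efemp1 show the widest spread, most collagen chains show little, and the luminal LY6D- library of mouse 5 is the highest of the 12 for 11 genes.

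Promoter sequence is shown for the genes the results below turn on. The bases directly before the start of the gene come from RefSeq (GRCm38.p6), whose promoter table held 22 of the 35 genes. Efemp1 is shown as the gene that passed the test, and Sparc, Vim and Rgs5 as genes lower in both LY6D+ basal libraries than in both LY6D- ones. Myl9 is shown because, of the 22 genes, it alone held a CArG box in the stretch searched, the element that serum response factor binds in muscle genes. Each is read 5′ to 3′ on the gene's own strand, and bases inside the annotated gene are left out. Capitals mark TATAAA in Vim, the CArG box in Myl9 and CCAAT, read from the other strand, in Rgs5; Efemp1 and Sparc carry no marked motif.
Efemp1 (chr11:28852955-28853153, + strand): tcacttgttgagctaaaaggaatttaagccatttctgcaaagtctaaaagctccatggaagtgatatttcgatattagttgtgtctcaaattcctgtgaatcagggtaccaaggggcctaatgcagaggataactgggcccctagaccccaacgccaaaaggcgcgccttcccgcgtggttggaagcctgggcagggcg
Sparc (chr11:55420081-55420330, - strand): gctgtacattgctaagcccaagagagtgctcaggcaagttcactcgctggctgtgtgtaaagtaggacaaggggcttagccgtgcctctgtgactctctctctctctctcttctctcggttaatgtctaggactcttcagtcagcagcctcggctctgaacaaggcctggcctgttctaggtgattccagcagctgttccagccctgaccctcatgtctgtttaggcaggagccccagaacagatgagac
Vim (chr2:13574061-13574310, + strand): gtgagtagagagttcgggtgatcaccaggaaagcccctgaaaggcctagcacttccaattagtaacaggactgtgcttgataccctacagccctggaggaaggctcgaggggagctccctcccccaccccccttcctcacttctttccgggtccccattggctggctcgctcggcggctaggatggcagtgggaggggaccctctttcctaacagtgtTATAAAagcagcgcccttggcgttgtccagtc
Myl9 (chr2:156775214-156775407, + strand): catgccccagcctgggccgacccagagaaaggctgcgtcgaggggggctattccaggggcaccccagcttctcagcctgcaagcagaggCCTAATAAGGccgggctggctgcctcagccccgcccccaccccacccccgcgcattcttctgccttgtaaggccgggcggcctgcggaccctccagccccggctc
Rgs5 (chr1:169655251-169655500, + strand): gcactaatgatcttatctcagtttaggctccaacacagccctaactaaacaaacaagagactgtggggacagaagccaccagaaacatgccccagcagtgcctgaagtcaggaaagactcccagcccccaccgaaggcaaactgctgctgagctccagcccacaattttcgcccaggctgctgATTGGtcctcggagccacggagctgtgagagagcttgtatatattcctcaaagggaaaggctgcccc

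Motifs were searched by their letters on both strands of the 250 bases before each start, and a match describes the letters only. The starts are those of the promoter table, and some windows reach into the annotated gene. The CArG box was found in 1 of the 22 genes, against 1.47% of 32817 promoters in the table. TATAAA was found in 3 (12.4% of promoters), among them Vim, where it begins 32 bases before the start. The other two are Col3a1 and Postn, for which TATAAA lies in 1 of its 2 listed promoters. CCAAT was found in 5 genes (33.8% of promoters) and GGGCGG in 11 (32.7% of promoters). GGGCGG matched 4 of the 4 elastic fibre genes with a sequence (Fbln2, Fbn1, Efemp1 and 1 of 2 promoters of Fbln1), and in Efemp1 it lies in the stretch inside the annotated gene that is not printed. Of the 5 smooth muscle genes with a sequence, Cnn1 and Lmod1 held CCAAT. Acta2 held none of the 4 motifs in its window (chr19:34255374-34255623, - strand). Most of that window lies inside the annotated gene, whose span reaches 34255585, so the bases before Acta2 were mostly not searched. Myh11, Tagln and Actg2 had no sequence.

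Across the gates, Efemp1 was the only 1 of the 34 genes to pass the test, and it rose in Sca1-high against luminal cells. With limma, 1 gene was higher in Sca1-high than in luminal cells, where 0.0397% of all genes were called higher, and 0 were lower (0.0993% called). At an unadjusted p under 0.05, 5 genes were higher (Col1a2, Dcn, Mgp, Efemp1 and Serping1; 4.03% of all genes) and 4 were lower (Col6a1, Postn, Myh11 and Acta2; 4.38% of all genes). In basal against luminal cells 0 genes passed in either direction (0.139% called higher and 0.278% called lower). At an unadjusted p under 0.05, 2 were higher there (Dcn and Efemp1; 4.86% of all genes). A further 8 were lower (Col6a1, Postn, Thy1, Vim, Myh11, Acta2, Des and Rgs5; 4.58% of all genes). In Sca1-high against basal cells 0 passed as well (0.0% called higher, 0.00993% called lower), with 7 higher at an unadjusted p under 0.05 (Col1a2, Sparc, Mgp, Efemp1, Serping1, Vim and Rgs5; 4.5% of all genes) and 0 lower (5.32%).

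The median difference of the 34 genes was 0.02 for Sca1-high minus luminal, beside 0.07 over all genes, and 17 of 34 were positive (59.8% of all genes); centring each array on its median gave -0.07, and leaving mouse 5 out of the Sca1-high gate 0.17. It was -0.27 for basal minus luminal (-0.03 over all genes), with 10 of 34 positive (45.8%), and 0.27 for Sca1-high minus basal (0.11 over all genes). In the last of these, 29 of 34 genes had a positive difference, against 64.2% of all genes. These 3 comparisons share their libraries in pairs, so they are not separate evidence. Without overlap between the 4 libraries of each gate, 3 genes were higher in Sca1-high than in luminal cells (Dcn, Mgp and Efemp1; 3.57% of all genes) and Postn was lower (2.48%). Against basal cells, 6 genes were higher in the Sca1-high gate without overlap (Col1a2, Col3a1, Efemp1, Myh11, Rgs5 and Cspg4; 4.77% of all genes).

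**Figure D2:**
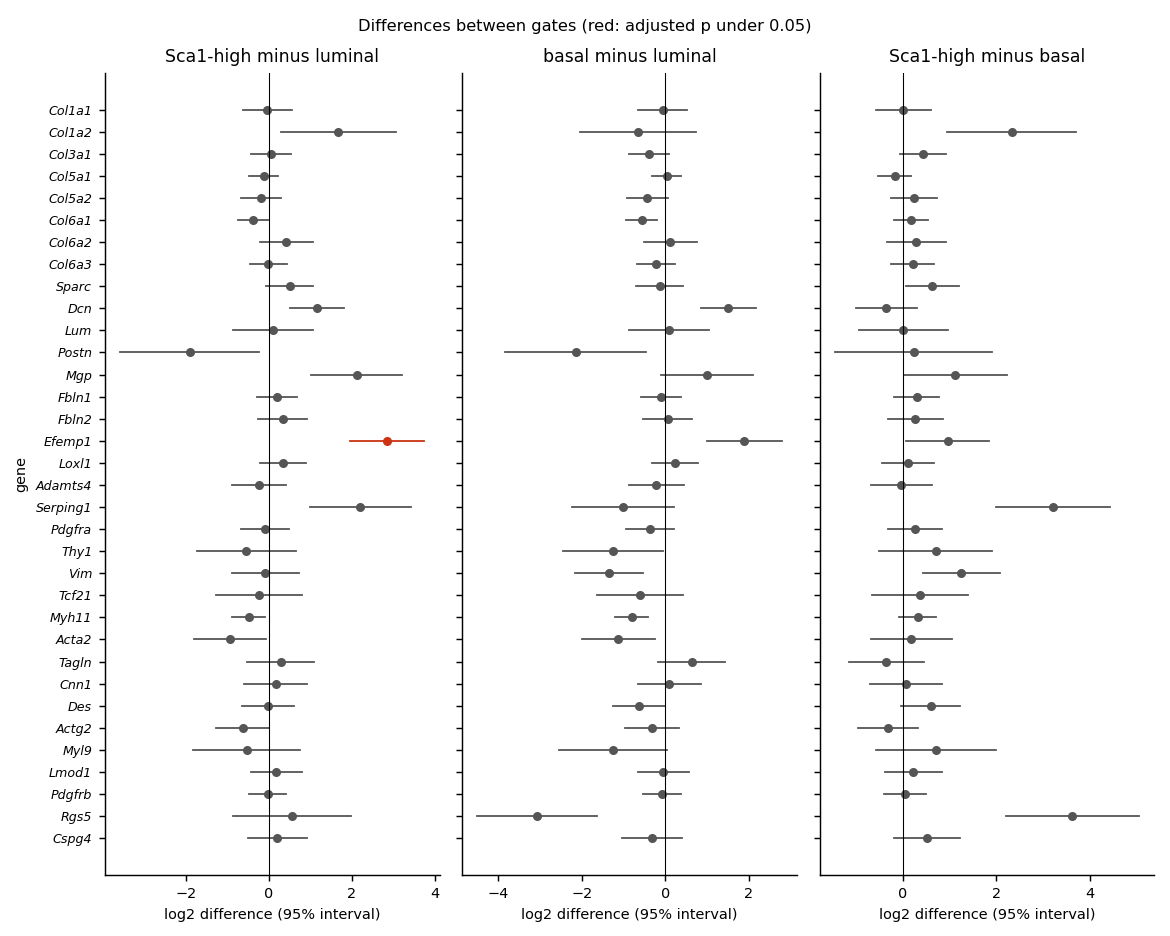
Difference between gates for each of the 34 genes (rows), on the log2 scale, with the 95% interval of the limma fit as a line and red for an adjusted p under 0.05. Efemp1 in Sca1-high minus luminal (2.86) is the only red point; Rgs5 and Serping1 lie farthest right in Sca1-high minus basal (3.63 and 3.22).

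Among the collagens, which form the fibrils and beaded filaments of the matrix, Col1a2 differed most between libraries. This gene for a chain of type I collagen read 4.88 and 5.01 in LY6D+ luminal libraries, 5.77 and 7.90 in LY6D- luminal, 7.01 and 8.62 in LY6D+ Sca1-high, 8.27 and 6.36 in LY6D- Sca1-high, 4.71 and 5.21 in LY6D+ basal, and 6.25 and 4.76 in LY6D- basal libraries. All 4 Sca1-high libraries lay above all 4 basal ones, and the luminal LY6D- library of mouse 5 reached into the Sca1-high range. The Sca1-high minus basal difference was 2.33 ± 0.61 and did not pass (adjusted p = 0.331); it was 2.41 ± 0.63 when mouse 5 was left out of the Sca1-high gate (adjusted p = 0.315). A second Col1a2 probe set gave 0.34 for the same difference and 0.06 for Sca1-high minus luminal, where the brighter one gave 1.67, so the probe sets of this gene disagree. Its partner chain Col1a1 stayed between 5.13 and 6.23, with a Sca1-high minus basal difference of 0.01 (95% interval -0.58 to 0.61).

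Col6a1, a chain of the beaded-filament collagen VI, spanned a narrow range, with the luminal gate at the top on its brightest probe set. It was 5.52 and 5.71 in LY6D+ luminal, 5.72 and 5.64 in LY6D- luminal, 5.59 and 5.43 in LY6D+ Sca1-high, 5.13 and 4.91 in LY6D- Sca1-high, 5.00 and 5.17 in LY6D+ basal, and 5.16 and 5.01 in LY6D- basal libraries. All 4 basal libraries lay under all 4 luminal ones (3.17% of all genes were lower without overlap), by -0.56 ± 0.16 (adjusted p = 0.260). Its other probe set differed by -0.35 in the same direction. For Sca1-high minus luminal that probe set gave 0.19 where the brighter one gave -0.38, so they disagree on the highest gate. The mean of both gave -0.10 ± 0.50 for that difference and -0.46 ± 0.50 for basal minus luminal. Col5a1, which encodes a collagen that joins type I fibrils, was the collagen with the clearest LY6D contrast: 4.06 and 4.05 in LY6D+ against 4.63 and 4.63 in LY6D- Sca1-high libraries (-0.58 ± 0.22, adjusted p = 1.00). In the other gates Col5a1 ran from 4.34 to 4.74 on this probe set. A second Col5a1 probe set gave 0.36 for Sca1-high minus basal where the brighter one gave -0.17, so they disagree on the gates. With the mean of all probe sets of a gene, Col5a1 did not reach an unadjusted p under 0.05 by limma for LY6D in Sca1-high cells. Col3a1, Col5a2, Col6a2 and Col6a3 stayed between 3.79 and 5.97 in all libraries, with gate differences of at most 0.43 in size.

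Matrix proteoglycans and associated proteins held both a gene lower in luminal cells and one with its highest signal there. Dcn encodes decorin, a small proteoglycan that coats collagen fibrils. Its signal was 10.03 and 10.34 in LY6D+ luminal, 8.65 and 9.94 in LY6D- luminal, 11.12 and 10.64 in LY6D+ Sca1-high, 10.75 and 11.07 in LY6D- Sca1-high, 11.54 and 11.12 in LY6D+ basal, and 11.08 and 11.27 in LY6D- basal libraries. Every luminal library lay under every library of the other gates. The gate means were 9.74 ± 0.74, 10.89 ± 0.24 and 11.25 ± 0.21, and basal minus luminal was 1.51 ± 0.29 (adjusted p = 0.0725), short of the threshold; Dcn alone of the 34 was higher there without overlap (2.58% of all genes). Without the luminal LY6D- library of mouse 5 the difference was 1.83 ± 0.22 (adjusted p = 0.0279). Sca1-high and basal cells were neighbours in the order, at -0.36 ± 0.29.

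Mgp encodes matrix Gla protein, an inhibitor of calcification. It read 6.06 and 8.65 in LY6D+ luminal, 9.21 and 9.47 in LY6D- luminal, 9.97 and 10.03 in LY6D+ Sca1-high, 11.40 and 10.48 in LY6D- Sca1-high, 8.19 and 7.59 in LY6D+ basal, and 10.69 and 10.93 in LY6D- basal libraries. The LY6D+ luminal and LY6D+ basal libraries were the 4 lowest. Sca1-high exceeded luminal by 2.12 ± 0.49 (adjusted p = 0.222), with no overlap, and by 2.33 ± 0.64 with mouse 5 left out of the Sca1-high gate (adjusted p = 0.511). Leaving out the luminal LY6D+ library of mouse 5 gave 2.77, with 6.06 as the only LY6D+ luminal value, so its spread there is not measured. The refits that leave out 1 library gave 1.47 to 2.77. With mouse as a fixed block the difference was 1.19 ± 0.57 (adjusted p = 0.461).

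Sparc, the gene of a collagen-binding matricellular protein, was 7.45 and 7.36 in LY6D+ luminal, 8.11 and 9.22 in LY6D- luminal, 8.19 and 8.33 in LY6D+ Sca1-high, 8.96 and 8.63 in LY6D- Sca1-high, 7.43 and 7.14 in LY6D+ basal, and 8.60 and 8.41 in LY6D- basal libraries. Between gates its means differed little (8.03 ± 0.86 luminal, 8.53 ± 0.34 Sca1-high, 7.90 ± 0.72 basal), and the spread lay within the gates, by LY6D class. Postn, which encodes periostin, reached 8.0 in the luminal LY6D- library of mouse 5 and 2.74 to 4.91 in the other 11, a gap of 3.09 to the next. Its luminal mean of 5.24 ± 1.91 against 3.09 ± 0.44 in basal cells gave -2.15 ± 0.75 (adjusted p = 0.367). Without the luminal LY6D- library of mouse 4, which read 3.65, Postn passed in Sca1-high against luminal (-3.0 ± 0.25, adjusted p = 0.00585) and basal against luminal (-3.23 ± 0.25, adjusted p = 0.00415). That refit keeps the 8.0 of mouse 5 as the only LY6D- luminal value, so its spread there is not measured. Without that library instead, Postn did not pass: Sca1-high minus luminal went from -1.91 to -0.83 ± 0.25 (adjusted p = 0.582) and basal minus luminal to -1.06 ± 0.25 (adjusted p = 0.178). The luminal LY6D difference of Postn turned from -1.18 to 1.0. Lum (lumican) ranged from 2.35 to 4.78 with gate differences of at most 0.09 in size.

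The elastic fibre group supplied the single gene past the threshold. Efemp1 encodes a fibulin, a secreted glycoprotein of the matrix, and lies at chr11:28853154-28926743. Signal was 5.90 and 5.33 in LY6D+ luminal, 6.61 and 8.34 in LY6D- luminal, 9.03 and 10.02 in LY6D+ Sca1-high, 8.86 and 9.70 in LY6D- Sca1-high, 8.27 and 8.52 in LY6D+ basal, and 8.53 and 8.45 in LY6D- basal libraries. All Sca1-high libraries lay above all others, the basal ones sat in a narrow band, and the luminal ones were spread widely, with 1 of them inside the basal range. Gate means were 6.55 ± 1.30 (luminal), 8.44 ± 0.12 (basal) and 9.40 ± 0.55 (Sca1-high). Sca1-high exceeded luminal by 2.86 ± 0.40 (95% interval 1.96 to 3.75, adjusted p = 0.0414).

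This rise of Efemp1 kept its direction in every refit but lay close to the threshold. With mouse as a fixed block, where gate differences rest on mouse 5, it was 3.02 ± 0.51 (adjusted p = 0.0843), and with mouse as a random block 2.88 ± 0.39 (adjusted p = 0.0327). Without both Sca1-high libraries of mouse 5 it was 2.40 ± 0.46 (adjusted p = 0.197). Of the 12 refits that leave out 1 library, 9 lost the call, with differences from 2.42 to 3.29 and adjusted p from 0.0194 to 0.132; the call was kept when the library left out was either LY6D- luminal one or the LY6D+ Sca1-high one of mouse 1. Basal minus luminal was 1.90 ± 0.40 (adjusted p = 0.0971) and Sca1-high minus basal 0.96 ± 0.40 (adjusted p = 0.487). With mouse 5 left out of the Sca1-high gate, the latter was 0.50 ± 0.46 (adjusted p = 0.798).

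The other elastic fibre genes were flat. Fbln1, another fibulin, was 4.28 and 4.65 in LY6D+ luminal, 4.70 and 4.59 in LY6D- luminal, 4.95 and 4.62 in LY6D+ Sca1-high, 4.75 and 4.67 in LY6D- Sca1-high, 4.49 and 4.19 in LY6D+ basal, and 4.92 and 4.20 in LY6D- basal libraries. The 3 gates overlapped for it, and its widest gate difference, Sca1-high minus basal, was 0.30 (95% interval -0.18 to 0.78). Fbln2 ran from 4.53 to 5.64, and Loxl1, an enzyme that crosslinks elastin, from 3.51 to 4.70. Their gate differences were at most 0.33 in size.

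**Figure D3:**
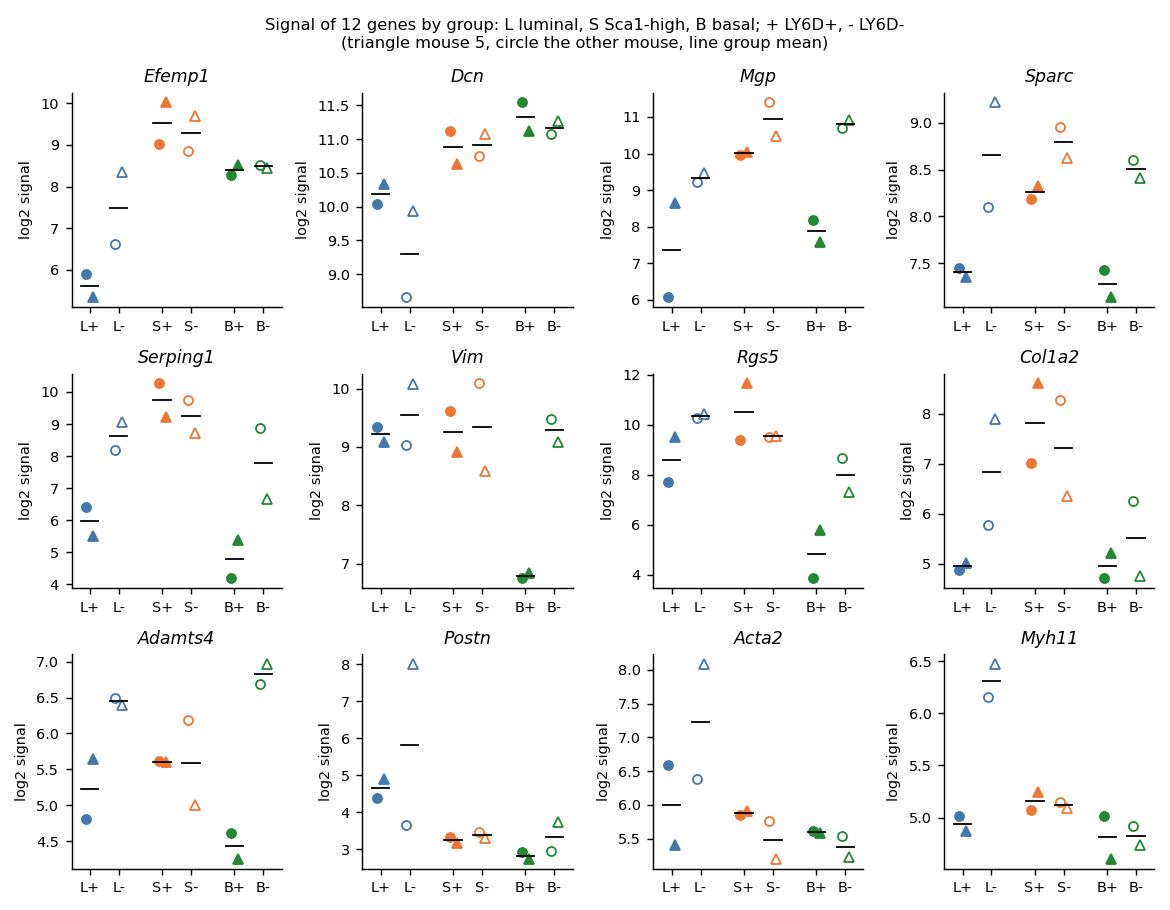
Log2 signal (vertical axis) of 12 genes in the 6 groups (horizontal axis: L luminal, S Sca1-high, B basal; + LY6D+, - LY6D-); triangles are mouse 5, circles the other mouse of the gate, and lines group means of 2 libraries. Efemp1 rises from luminal (5.33 to 8.34) to Sca1-high cells (8.86 to 10.02), while Vim, Rgs5, Sparc and Mgp each lie lower in both LY6D+ than in both LY6D- basal libraries.

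Serping1 encodes the plasma C1 inhibitor, which restrains complement and contact proteases. Its signal was 6.41 and 5.52 in LY6D+ luminal, 8.18 and 9.06 in LY6D- luminal, 10.27 and 9.23 in LY6D+ Sca1-high, 9.76 and 8.72 in LY6D- Sca1-high, 4.19 and 5.38 in LY6D+ basal, and 8.87 and 6.67 in LY6D- basal libraries. The 4 Sca1-high libraries were high whatever their LY6D class, and the LY6D+ luminal and LY6D+ basal libraries were the 4 lowest. Sca1-high minus basal was 3.22 ± 0.54 (adjusted p = 0.166) and Sca1-high minus luminal 2.20 ± 0.54 (adjusted p = 0.263). Without both Sca1-high libraries of mouse 5 these were 3.74 ± 0.66 (adjusted p = 0.128) and 2.72 ± 0.66 (adjusted p = 0.386). Without the basal LY6D- library of mouse 3, Sca1-high minus basal was 3.77, with 6.67 as the only LY6D- basal value, so its spread there is not measured. The refits that leave out 1 library gave 2.67 to 3.77.

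Adamts4 encodes a secreted protease that cuts proteoglycans. It was 4.81 and 5.65 in LY6D+ luminal, 6.50 and 6.40 in LY6D- luminal, 5.61 and 5.60 in LY6D+ Sca1-high, 6.18 and 5.00 in LY6D- Sca1-high, 4.61 and 4.25 in LY6D+ basal, and 6.68 and 6.97 in LY6D- basal libraries. The gates did not separate (5.84 ± 0.79, 5.60 ± 0.48 and 5.63 ± 1.40), whereas LY6D+ and LY6D- basal libraries did. Sca1-high minus luminal was -0.24 ± 0.29 (adjusted p = 0.848), and with mouse 5 left out of the Sca1-high gate it was 0.06 ± 0.30.

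Of the genes for fibroblast receptors, surface proteins, filaments and factors, Vim had the largest moderated t between gates. It encodes vimentin, the intermediate filament of mesenchymal cells, also made by endothelial and immune cells. Signal was 9.35 and 9.08 in LY6D+ luminal, 9.04 and 10.07 in LY6D- luminal, 9.61 and 8.91 in LY6D+ Sca1-high, 10.09 and 8.58 in LY6D- Sca1-high, 6.75 and 6.85 in LY6D+ basal, and 9.48 and 9.09 in LY6D- basal libraries. Both LY6D+ basal libraries stood more than 1.5 log2 units under the other 10. Basal minus luminal was -1.34 ± 0.36 (adjusted p = 0.224) and Sca1-high minus basal 1.26 ± 0.36 (adjusted p = 0.352), the latter 1.81 ± 0.33 with mouse 5 left out of the Sca1-high gate (adjusted p = 0.129). The basal gate had the widest spread (8.04 ± 1.44, against 9.39 ± 0.48 in luminal and 9.30 ± 0.68 in Sca1-high cells). The second Vim probe set gave -0.87 and 0.61 for these differences.

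Thy1, a surface glycoprotein of fibroblasts and T cells, was 5.29 and 4.97 in LY6D+ luminal, 6.35 and 8.35 in LY6D- luminal, 6.71 and 4.67 in LY6D+ Sca1-high, 6.23 and 5.17 in LY6D- Sca1-high, 5.11 and 4.65 in LY6D+ basal, and 4.89 and 5.30 in LY6D- basal libraries. The highest value was again luminal LY6D- of mouse 5, and the gates overlapped (basal minus luminal -1.25 ± 0.53, adjusted p = 0.504; -0.75 without that library). Tcf21, a transcription factor of fibroblast precursors, ran from 3.63 to 6.70 and peaked in the same library. Pdgfra, the receptor that marks many fibroblasts, stayed between 2.96 and 4.39, with the same library highest.

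Of the 8 smooth muscle contractile genes, 2 had a positive basal minus luminal difference (45.8% of all genes were positive) and 3 were lower at an unadjusted p under 0.05 (4.58% of all genes), and 5 had their highest value in the same luminal library. Acta2, smooth muscle alpha-actin, was 6.59 and 5.41 in LY6D+ luminal, 6.38 and 8.09 in LY6D- luminal, 5.85 and 5.91 in LY6D+ Sca1-high, 5.76 and 5.20 in LY6D- Sca1-high, 5.61 and 5.59 in LY6D+ basal, and 5.54 and 5.22 in LY6D- basal libraries. The basal libraries lay close together, and basal minus luminal was -1.12 ± 0.39 (adjusted p = 0.361); it was -0.70 without the luminal LY6D- library of mouse 5. Myh11, the smooth muscle myosin heavy chain, was 5.01 and 4.87 in LY6D+ luminal, 6.16 and 6.47 in LY6D- luminal, 5.07 and 5.25 in LY6D+ Sca1-high, 5.15 and 5.09 in LY6D- Sca1-high, 5.02 and 4.60 in LY6D+ basal, and 4.92 and 4.73 in LY6D- basal libraries. For Myh11 both LY6D- luminal libraries, from mice 4 and 5, stood apart above the other 10. Basal minus luminal was -0.81 ± 0.18 (adjusted p = 0.121) and Sca1-high minus luminal -0.49 ± 0.18 (adjusted p = 0.510).

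Myl9, a regulatory myosin light chain, peaked at 8.86 in the luminal LY6D- library of mouse 5 and at 8.19 in LY6D+ Sca1-high cells of mouse 1, with 5.35 to 6.78 elsewhere. Des (desmin, the muscle intermediate filament) and Actg2 (the enteric smooth muscle actin) were also highest in that luminal library, at 4.97 and 5.29. Tagln, an actin-binding protein of smooth muscle, was highest in a basal library (5.77, LY6D+ of mouse 5), with 3.78 to 5.35 elsewhere. Cnn1 (calponin) ran from 3.47 to 4.95 and Lmod1 (leiomodin, which nucleates actin filaments) from 4.48 to 5.51. By limma, 0 of these 8 genes passed in any comparison.

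Rgs5 had the widest range of the 34 genes, 7.80 log2 units. It encodes a regulator of G-protein signalling that is abundant in pericytes. Its signal was 7.70 and 9.50 in LY6D+ luminal, 10.27 and 10.41 in LY6D- luminal, 9.38 and 11.66 in LY6D+ Sca1-high, 9.52 and 9.56 in LY6D- Sca1-high, 3.86 and 5.79 in LY6D+ basal, and 8.66 and 7.29 in LY6D- basal libraries. Luminal and Sca1-high libraries overlapped (0.56 ± 0.63), and every Sca1-high library exceeded every basal one. Sca1-high minus basal was 3.63 ± 0.63 (adjusted p = 0.166), and basal minus luminal -3.07 ± 0.63 (adjusted p = 0.0917). Without both Sca1-high libraries of mouse 5 the first was 3.05 ± 0.70 (adjusted p = 0.237). A second Rgs5 probe set kept both directions at 1.51 and -1.26.

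The other pericyte genes spanned narrower ranges. Cspg4, a surface proteoglycan of pericytes, was 5.21 and 4.24 in LY6D+ luminal, 6.08 and 4.75 in LY6D- luminal, 5.35 and 5.42 in LY6D+ Sca1-high, 5.18 and 5.14 in LY6D- Sca1-high, 4.86 and 4.52 in LY6D+ basal, and 4.91 and 4.71 in LY6D- basal libraries. Its gate means had the order of those of Rgs5 (5.27 ± 0.13 Sca1-high, 5.07 ± 0.78 luminal, 4.75 ± 0.17 basal), and its Sca1-high libraries were tightly grouped just above the basal ones, by 0.52 ± 0.32 (adjusted p = 0.581). Pdgfrb, the growth factor receptor that defines pericytes, stayed between 4.26 and 4.96 in all 12 libraries, and Sca1-high minus basal was 0.05 (95% interval -0.40 to 0.50).

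Within gates, LY6D+ and LY6D- cells were compared to describe what the LY6D sort separates. No LY6D comparison called any of the 34 genes by limma. The share of all genes called was 0.0% in both directions in luminal and Sca1-high cells and over the gates, and in basal cells it was 0.00993% higher and 0.0% lower. At an unadjusted p under 0.05, 8 genes were lower in LY6D+ luminal cells (Sparc, Mgp, Efemp1, Adamts4, Serping1, Thy1, Myh11 and Acta2; 2.08% of all genes) and 0 were higher (1.48%). In LY6D+ basal cells 7 were lower (Sparc, Mgp, Adamts4, Serping1, Vim, Tcf21 and Rgs5; 1.08% of all genes) and 0 higher (1.12%). In the Sca1-high gate 2 were lower (Col5a1 and Actg2, against 1.5% of all genes) and 0 higher (0.914%). Taking the mean of all probe sets of a gene made that count of lower genes 1 (Actg2). That count was 0 without either mouse 1 library or without the LY6D- library of mouse 5, and 1 (Tcf21) without the LY6D+ library of mouse 5 or without both. Over the 3 gates 8 were lower (Sparc, Mgp, Adamts4, Serping1, Vim, Tcf21, Myh11 and Rgs5; 1.54% of all genes) and 0 higher (1.08%).

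The median LY6D+ minus LY6D- difference of the 34 genes was -0.48 in luminal cells (0.02 over all genes), with 7 of 34 positive (52.1% of all genes). It was -0.15 in basal cells (0.02 over all genes), with 12 positive (53.4%), and 0.03 in Sca1-high cells (-0.04 over all genes), with 19 positive (45.3%); leaving mouse 5 out of the Sca1-high gate gave -0.10. Over the gates it was -0.20 (0.00 over all genes), with 8 positive (49.9%). In luminal cells, 16 genes were lower in both LY6D+ libraries than in both LY6D- ones (12.5% of all genes); in basal cells 9 were (10.9%) and in Sca1-high cells 7 (17.2%). Higher in both LY6D+ libraries were 2 genes in luminal cells (Dcn and Loxl1, against 15.4%) and 2 in basal cells (Col5a1 and Acta2, against 13.7%). In Sca1-high cells 5 were (Col6a1, Lum, Acta2, Des and Cspg4, against 11.8%). Apart from these counts without overlap, 8 genes were lower in LY6D+ luminal cells at an unadjusted p under 0.05 by limma, as given above. Refits of that count without luminal LY6D- mouse 5 keep 1 library in the group, so its spread there is not measured. The luminal count leans on 1 library: without luminal LY6D- mouse 5, 5 genes were lower at an unadjusted p under 0.05, and without the 3 libraries of mouse 5 that stood apart, 3 were (Cspg4, Myh11 and Serping1). The count over the gates was 5 without those 3 libraries (Adamts4, Mgp, Rgs5, Serping1 and Sparc).

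Sparc and Mgp were lower in LY6D+ than in LY6D- cells in all 6 pairs of libraries from 1 mouse and gate, as were 1.39% of all genes. For Sparc the pair differences ran from -0.30 (Sca1-high mouse 5) to -1.86 (luminal mouse 5), and the mean over the gates was -1.01 ± 0.20 (95% interval -1.46 to -0.55, adjusted p = 1.00). For Mgp they ran from -0.44 (Sca1-high mouse 5) to -3.34 (basal mouse 5), with a mean of -1.95 ± 0.40 (95% interval -2.85 to -1.05, adjusted p = 1.00). Without both libraries of the Sca1-high pair of mouse 5 the means were -1.08 ± 0.26 (Sparc, adjusted p = 0.661) and -2.11 ± 0.49 (Mgp, adjusted p = 0.640). Without the luminal LY6D+ library of mouse 5, the mean of Mgp over the gates was -2.38, with 6.06 as the only LY6D+ luminal value, so its spread there is not measured.

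In basal cells the LY6D differences were wide for single genes, and for the 4 given here both mice pointed the same way. Other genes differed in sign between the mice, such as Col1a2 (-1.54 in mouse 3 and 0.45 in mouse 5). Adamts4 was lower in LY6D+ basal cells by -2.40 ± 0.41 (adjusted p = 0.747), by -2.07 in mouse 3 and -2.72 in mouse 5. Vim was lower by -2.48 ± 0.51 (adjusted p = 1.00), by -2.72 and -2.25 in these mice. Rgs5 was lower by -3.15 ± 0.90 (adjusted p = 1.00), with -4.80 in mouse 3 and -1.50 in mouse 5. Serping1 likewise differed by -4.68 and -1.29, a mean of -2.98 ± 0.76 (adjusted p = 1.00). For these 4 genes both LY6D+ libraries lay under both LY6D- libraries, and for Rgs5 and Serping1 the size differed between the mice by over 3 log2 units. The mean of both Rgs5 probe sets gave -1.33 ± 0.76 in basal cells and -0.73 ± 0.44 over the gates. The second Rgs5 probe set therefore did not share the basal fall of the brighter one.

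In luminal cells Myh11 had the largest moderated t of the contractile genes for LY6D, lower in LY6D+ cells by -1.37 ± 0.25 (adjusted p = 0.673), by -1.14 in mouse 4 and -1.60 in mouse 5. Efemp1 differed by -1.86 ± 0.56 (adjusted p = 1.00), made of -0.71 in mouse 4 and -3.0 in mouse 5, and was -0.99 ± 0.50 without the luminal LY6D- library of mouse 5. For Serping1 the luminal mice gave -1.77 and -3.54. In Sca1-high cells Serping1 was 0.52 and 0.51 higher in the LY6D+ libraries of mice 1 and 5, and Rgs5 differed by -0.14 in mouse 1 and 2.10 in mouse 5. Tests of the LY6D difference between gates called 0 of the 34 genes in any direction. At an unadjusted p under 0.05, the LY6D difference in Sca1-high cells exceeded that in basal cells for 4 genes (Adamts4, Serping1, Vim and Rgs5; 0.934% of all genes) and was below it for Col5a1 (1.43%). Against luminal cells it was higher for 4 (Lum, Efemp1, Serping1 and Myh11; 1.34%) and lower for Actg2 (1.58%). The basal LY6D difference was above the luminal one for Myh11 (1.49%) and below it for Vim (0.959%). The sign was positive for 26 of 34 genes in Sca1-high minus basal (44.6% of all genes), 25 in Sca1-high minus luminal (46.2%) and 20 in basal minus luminal (50.4%). All 3 of these comparisons reuse the same LY6D differences.

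**Figure D4:**
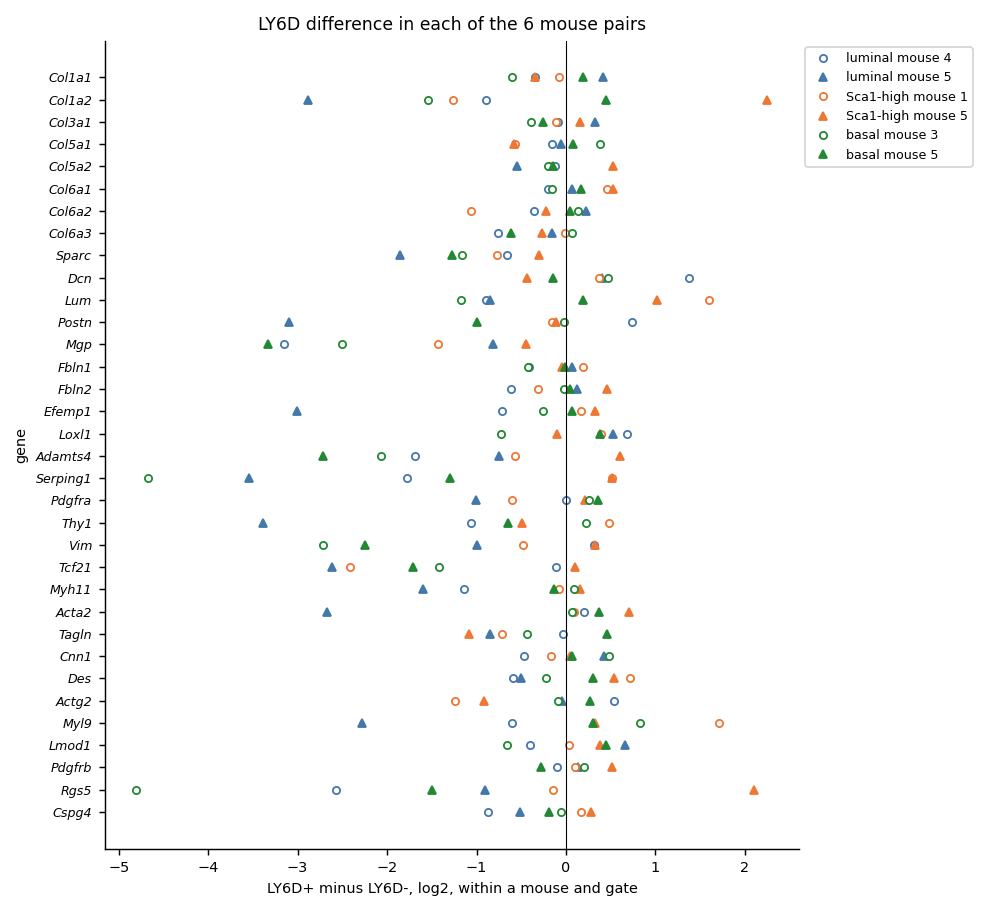
LY6D+ minus LY6D- difference on the log2 scale (horizontal axis) for each of the 34 genes (rows) in the 6 pairs of libraries from 1 mouse and gate; colours mark the gate, triangles mouse 5. Sparc and Mgp have all 6 points left of 0, and the farthest points left are Rgs5 (-4.80) and Serping1 (-4.68) in basal mouse 3.

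The luminal LY6D- library of mouse 5 was the highest of the 12 for 11 of the 34 genes, against 9.51% of all genes; it was also the lowest of the 12 for 20.9% of all genes. These were Col5a2, Sparc, Postn, Pdgfra, Thy1, Tcf21, Myh11, Acta2, Des, Actg2 and Myl9, 5 of them of the contractile group. The mean over the 34 genes was 6.34 in that library, 5.82 in the LY6D- luminal library of mouse 4 and 5.32 and 5.41 in the LY6D+ luminal ones. The sort excluded CD45+ cells, yet Ptprc, the gene of CD45, read 8.90 in that library, 5.97 in LY6D- luminal cells of mouse 4, 4.04 and 6.91 in LY6D+ luminal cells and 3.25 to 4.53 in the Sca1-high and basal libraries. In the LY6D- luminal libraries the mean of 13 lymphoid genes was 4.66 and 5.44, against 3.68 to 3.99 in LY6D+ luminal cells. Of those 13 genes, 4 were lower in LY6D+ luminal cells at an unadjusted p under 0.05 (2.08% of all genes) and 0 passed. The lymphoid chemokine gene Xcl1 read 10.69 and 8.75 in the LY6D- and 4.38 and 4.39 in the LY6D+ luminal libraries. Their part in the stromal values was not tested.

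In the basal gate, endothelial genes moved with the same LY6D classes as the stromal ones, although the sort excluded CD31+ cells. The mean of 18 endothelial genes was 6.32 and 6.27 in LY6D- basal and 4.30 and 4.50 in LY6D+ basal libraries. All 18 had a negative LY6D+ minus LY6D- difference there (median -1.04), where 53.4% of all genes were positive. Of the 18, 10 had an unadjusted p under 0.05 (1.08% of all genes were lower so), and 0 passed. The defining marker Cdh5 (the endothelial cadherin) was 9.78 and 9.33 in LY6D- and 4.26 and 5.88 in LY6D+ basal libraries, and Emcn (endomucin) 10.34 and 10.27 against 3.62 and 5.06. The stromal mean was 5.84 and 5.47 against 5.16 and 5.07. None of the 18 endothelial genes is among the 35, and their part in the lower Vim, Rgs5, Serping1, Mgp and Sparc of LY6D+ basal cells was not tested.

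Between gates, too, other cell lists moved beside the stromal genes. In Sca1-high cells the endothelial mean was 5.48 to 6.87 against 4.19 to 4.62 in luminal cells, and 2 of 18 genes rose (Emcn by 5.69 ± 0.66, adjusted p = 0.0203; Adgrl4 by 5.14 ± 0.74, adjusted p = 0.0469). With mouse 5 left out of the Sca1-high gate, Emcn missed the threshold (5.51 ± 0.69, adjusted p = 0.0526) and Adgrl4 passed (4.88 ± 0.49, adjusted p = 0.038). The mean of 16 myeloid genes was 6.36 to 7.40 in luminal, 4.61 to 6.11 in Sca1-high and 4.28 to 5.01 in basal cells. Of the 16, 6 fell in basal against luminal cells, among them Cd68 (-4.26 ± 0.68, adjusted p = 0.0403) and Mrc1 (-2.54 ± 0.35, adjusted p = 0.0244). Schwann and neural genes (6 tested) averaged 5.53 in the luminal LY6D- library of mouse 5 and 4.05 to 4.80 elsewhere, with 0 past the test. Of these 6, 1 was lower in Sca1-high than in luminal cells at an unadjusted p under 0.05 (4.38% of all genes). What these lists contribute to the gate differences of Efemp1, Vim, Thy1, Postn, Rgs5 or any other stromal gene was not tested.

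**Figure D5:**
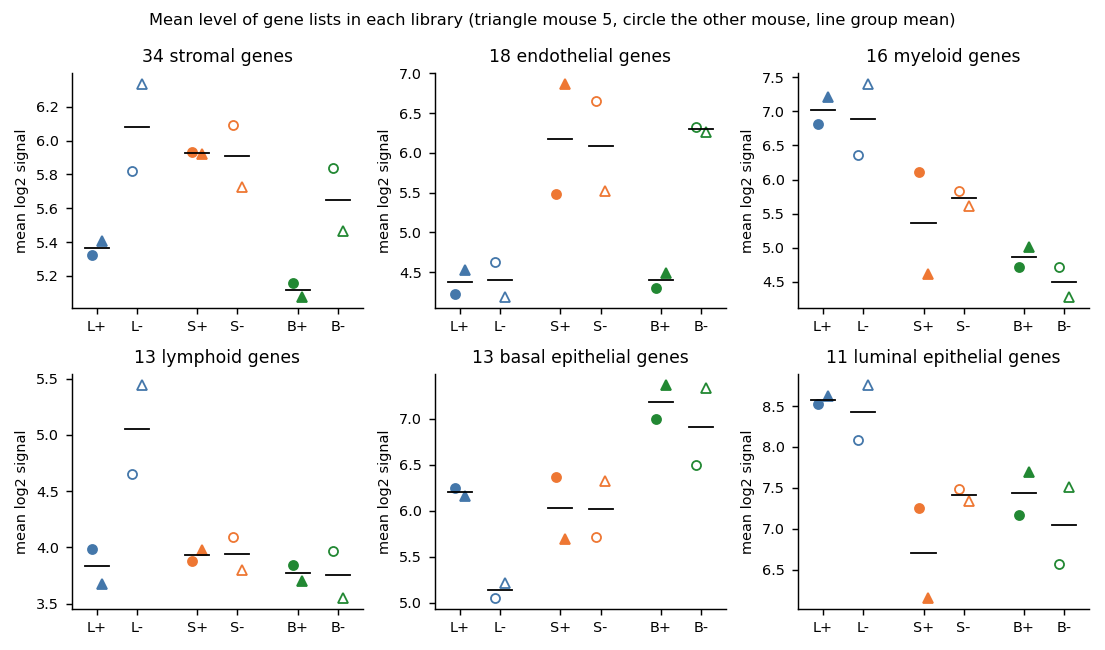
Mean log2 signal (vertical axis) of the 34 stromal genes and of 5 lists of other cell types in each library, by group (horizontal axis: L luminal, S Sca1-high, B basal; + LY6D+, - LY6D-); triangles are mouse 5, circles the other mouse, lines group means. Stromal means are lowest in LY6D+ basal cells (5.16 and 5.07), where endothelial means are also low (4.30 and 4.50), and highest in the luminal LY6D- library of mouse 5 (6.34), where the lymphoid mean is highest (5.44).

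The gates were also read on epithelial genes, which check the basal and luminal labels. Basal epithelial genes (13 tested) averaged 6.49 to 7.36 in basal and 5.05 to 6.25 in luminal cells, and luminal epithelial genes (11 tested) 8.09 to 8.76 in luminal and 6.57 to 7.69 in basal cells. In basal against luminal cells, 1 basal gene rose (Col17a1, a hemidesmosome collagen, by 2.14 ± 0.32, adjusted p = 0.0322). In the same comparison 3 luminal genes fell, among them Azgp1 (-3.32 ± 0.33, adjusted p = 0.00672). The LY6D+ Sca1-high library of mouse 5 had the lowest luminal epithelial mean of all (6.15).

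Genes that work with the listed ones gave few calls. Of 21 other stromal matrix genes, 0 passed in any gate comparison; Fmod, a proteoglycan that binds collagen, had a Sca1-high minus basal difference of -2.56 ± 0.61 (adjusted p = 0.266), and Ccn2 a basal minus luminal difference of 1.31 ± 0.35 (adjusted p = 0.213). Among 11 genes of collagen processing and crosslinking 0 passed, with Plod2 (a lysyl hydroxylase) at 0.63 ± 0.29 in basal minus luminal (adjusted p = 0.542). Matrix turnover genes (15 tested) also gave 0, and Mmp13, a collagenase, differed by -2.86 ± 0.58 in Sca1-high minus luminal (adjusted p = 0.142). At an unadjusted p under 0.05, limma found 3 of these 21, 11 and 15 genes in Sca1-high against luminal cells for the first list, 0 for the next and 3 for the last. Over all genes 4.03% were higher and 4.38% lower so.

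Of 20 other smooth muscle genes, 15 had a positive basal minus luminal difference (45.8% of all genes), with a median of 0.24 against -0.03 over all genes. Of these, 7 had an unadjusted p under 0.05 (4.86% of all genes were higher so), and 0 passed by limma. The actin crosslinker Flna had a Sca1-high minus basal difference of -2.45 ± 0.53 (adjusted p = 0.204) and Smtn (smoothelin) one of -1.89 ± 0.43 (adjusted p = 0.225). Other pericyte genes (12) gave 0 calls between gates, and 2 at an unadjusted p under 0.05 in Sca1-high against luminal cells, with Notch3 at 0.45 ± 0.18 in Sca1-high minus luminal (adjusted p = 0.549). Other fibroblast genes (22) also gave 0, with 4 at an unadjusted p under 0.05 in that comparison, and their LY6D medians were -0.18 in luminal and -0.21 in basal cells. In that comparison 4.03% of all genes were higher and 4.38% lower at an unadjusted p under 0.05. Cd34, a surface protein of fibroblasts and endothelium, differed by 2.64 ± 0.77 in Sca1-high minus luminal (adjusted p = 0.371).

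Among 23 matrix receptor and TGF-beta pathway genes, Tgfbi was the exception. It encodes a secreted matrix protein induced by TGF-beta, and read 6.35 and 7.0 in LY6D+ luminal and 6.79 and 8.01 in LY6D- luminal libraries, against 4.74 to 5.40 in Sca1-high and 4.86 to 5.51 in basal libraries. Tgfbi fell in both other gates: in Sca1-high against luminal cells by -2.03 ± 0.29 (adjusted p = 0.0469), and in basal against luminal cells by -1.84 ± 0.29 (adjusted p = 0.0402). No Sca1-high or basal library reached the luminal range. With mouse 5 left out of the Sca1-high gate, the first was -1.83 ± 0.38 and missed the threshold (adjusted p = 0.231). In Sca1-high against luminal cells Efemp1 rose where Tgfbi fell. The ligands of the PDGF receptors (4 genes) gave 0 calls between gates and 0 at an unadjusted p under 0.05, with Pdgfb at 0.61 ± 0.32 in basal minus luminal (adjusted p = 0.630).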

How the data were processed

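RNA of sorted cells was amplified, labelled and hybridized to arrays, per the labels' protocols. Each probe set has 1 log2 signal per array in the deposited table; RMA and oligo are named in the submitters' processing notes with no version, and other settings are not given in the sources used here. Of 41345 probe sets, 23521 had 1 gene symbol in the platform annotation, 1814 had several and 16010 had none; the brightest per gene was kept (22180 genes), and genes with at least 2 arrays above the lower quartile of the table (2.98) were tested (20135). Read depth does not apply to arrays, whose number limits the precision.

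Using limma 3.58.1 (R 4.3.3), 1 mean was fitted per group for 6 groups. Variances were moderated, at 6 degrees of freedom from the residuals and 3.28 from the prior. The Benjamini-Hochberg method adjusted p over all genes of each comparison, with a threshold of 0.05. A gate difference is the mean of its LY6D+ and LY6D- groups against that of another gate. Intervals are 95% intervals of that fit. Mouse numbers name the animal, and so pair the libraries of a gate; deviations of paired libraries from their group means correlated at 0.02 (luminal), 0.15 (Sca1-high) and 0.41 (basal). The main fit had no mouse term; fixed and random mouse blocks (consensus correlation 0.15) were alternatives, beside other filters, probe set rules, scalings and left-out libraries. The pipeline was tested on simulated data.

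The genes, the lists of related and other-cell genes and the tests were chosen with earlier results of these data known. Values in every library are given for genes past the threshold and, per role, for the 2 with the highest moderated t between gates and the 1 with the highest for LY6D. Postn, Ptprc, Xcl1, Cdh5 and Tgfbi values were added after they were seen. Krt8 and Krt18 values of 1 library were also given outside this rule. From each other list up to 4 genes past the threshold, or the 2 with the smallest p, could be named.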

Additional observations from a re-analysis of the deposited data

Results flagged for a closer look

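Rgs5 in the Sca1-high gate had 1 library apart from the other 3: the library labelled LY6D+ of mouse 5 read 11.66, and the next highest 9.56. The gap was 0.921 of the range of the 4, above Dixon's critical value of 0.829. This was 1 of 102 such tests (34 genes in 3 gates), or 0.98%, where chance gives about 1 in 20. Its Ly6d signal was under that of its LY6D- partner, as in 2 other pairs of the 6, and its endothelial mean was the highest of the 12 (6.87); their part in the Rgs5 value was not tested.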

How the results depend on the processing

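The number of listed genes called in Sca1-high against luminal cells was 1 (Efemp1) and became 0 with arrays centred on their medians (Efemp1 2.77, adjusted p = 0.0896), robust moderation with an intensity trend (adjusted p = 0.0733), mouse as a fixed block, only the groups compared (adjusted p = 0.152), without both Sca1-high libraries of mouse 5, and without the 3 libraries of mouse 5 that stood apart (3.29, adjusted p = 0.122). It stayed at 1 with no filter, the stricter filter, the mean of all probe sets, renewed quantile normalization (3.08, adjusted p = 0.0244) and the random block. Leaving out 1 library at a time gave 0 to 2 calls there, 0 to 2 in basal against luminal, 0 to 1 in Sca1-high against basal, 0 to 1 for LY6D in luminal cells and 0 to 1 over the gates; genes gained were Mgp, Postn (also for LY6D in luminal cells, -3.35, adjusted p = 0.0181), Dcn, Efemp1 in basal against luminal (2.33, adjusted p = 0.0362) and Serping1.

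The median basal minus luminal difference was -0.48 with the replicate block (mouse fixed) and -0.10 without the 3 libraries of mouse 5; leaving out 1 library gave -0.38 to -0.16. The same refits gave medians of -0.65 to -0.37 for LY6D in luminal, -0.13 to 0.17 in Sca1-high and -0.29 to 0.057 in basal cells. The block changed no other call. Adamts4 in Sca1-high minus luminal turned from -0.24 to 0.0593 without both Sca1-high libraries of mouse 5; leaving out 1 library gave -0.53 to 0.0568. At an unadjusted p under 0.05 (an alternative count chosen after seeing the data), 0 to 2 genes were lower in Sca1-high than in luminal cells in most of the refits that moved, against 4. The cause was not tested.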
